A study of Mus musculus with 14 samples.

Results

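The 8 genes Myoc, Angptl7, C1qtnf1, Lingo1, Lrrn4cl, Kcnn3, P4htm and Plcg2 were examined in hearts of wild type mice and of mice lacking Ccl24. They were selected from earlier results of these data, in which their counts were lower in knockout than in wild type hearts after pressure overload. That difference is therefore a description here and carries no test. The counts table held 54532 genes, 15876 passed the filter on low counts, and all 8 genes were among them. The hearts were taken 1 week after transverse aortic constriction (TAC), which ties the aortic arch to a narrower bore and loads the left ventricle, or after a sham operation. Polyadenylated RNA of ventricular tissue was sequenced in 4 groups: wild type sham (n = 2), wild type TAC (n = 6), knockout sham (n = 2) and knockout TAC (n = 4). The labels give the mutant genotype as CCL24 KO and no other allele or agent, and they do not give strain, sex or age. The number of libraries in each group equals the number of operated mice in the study's design text, and each library stands for 1 mouse. The question for these genes was whether the genotypes already differed after the sham operation.

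CCL24 is a chemokine that acts through the receptor CCR3 and draws eosinophils and other leukocytes. The stroma of the heart comprises fibroblasts, pericytes, nerve sheath cells, macrophages and other cells that lie between the cardiomyocytes, and pressure overload activates its fibroblasts, which then lay down matrix. The 8 genes encode proteins of different kinds, and which cells of these hearts express them was not tested. Myoc, Angptl7 and C1qtnf1 encode secreted proteins. Lingo1, Lrrn4cl and Kcnn3 encode proteins of the cell membrane. P4htm and Plcg2 encode enzymes.

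Myoc and Angptl7 had similar profiles over the groups, so the 250 bases before their start sites are shown. They are RefSeq sequences on GRCm38.p6, written 5′ to 3′ on the strand of the gene. The Myoc window is chr1:162638900-162639149 on the plus strand and the Angptl7 window is chr4:148500463-148500712 on the minus strand. Capitals mark matches to the motifs searched.
Myoc: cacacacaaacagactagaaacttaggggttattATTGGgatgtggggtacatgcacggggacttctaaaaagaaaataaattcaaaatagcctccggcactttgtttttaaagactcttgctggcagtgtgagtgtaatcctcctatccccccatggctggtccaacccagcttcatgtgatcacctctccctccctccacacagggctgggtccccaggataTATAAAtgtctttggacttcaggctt
Angptl7: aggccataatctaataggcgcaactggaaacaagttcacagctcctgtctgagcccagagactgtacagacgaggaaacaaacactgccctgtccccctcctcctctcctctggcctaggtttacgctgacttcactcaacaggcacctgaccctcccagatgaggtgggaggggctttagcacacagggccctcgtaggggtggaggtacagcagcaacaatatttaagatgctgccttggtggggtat
The search covered both strands for 7 motifs. The Myoc window held TATAAA, the core of a TATA box, 26 bases before the start site, and CCAAT on the opposite strand (written ATTGG here) 216 bases before it. Of 32851 promoters of this length, 12.4% held TATAAA and 33.8% held CCAAT. The Angptl7 window held no match. The letters TGANTCA (an AP-1 motif, 6.75% of promoters), ACANNNTGT (a steroid receptor motif, 5.84%) and GGAATG (a TEAD motif, 12.6%) were in none of the 6 genes with a promoter in the table. CACGTG (an E-box, 6.02%) was in Plcg2 only, and ACGTG (a hypoxia response core, 16.6%, contained in CACGTG) was in Lingo1 and Plcg2. CCAAT was also found in Kcnn3. The Myoc window had 46.8% G and C and 2 CpG dinucleotides, and the Angptl7 window 54.4% and 4, where the medians of all promoters were 52.4% and 6. The windows of Kcnn3, Lingo1, P4htm and Plcg2 were richer, with 58.8% to 72.8% and 10 to 31 CpG dinucleotides. Promoters of Lrrn4cl and C1qtnf1 are not shown.

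The libraries held 17072262 to 33123052 counts. Levels are CPM (counts scaled to a common library total, with TMM factors), on which 3 counts equal 0.0906 to 0.176 CPM depending on the library. Ccl24 had 3 to 8 counts in each of the 6 knockout libraries. In wild type it had 61 and 72 counts after sham surgery and 56 to 105 in 5 of the 6 TAC libraries. The library labelled wild type TAC replicate 1 had 3 counts (exact 95% Poisson interval 0.619 to 8.77, counting error only), which lies in the knockout range, against its genotype label. Its group assignment was left as labelled, and the results that rest on it are also given with that library removed. None of the 8 genes lies on chromosome 5, where Ccl24 is; they lie on 7 other chromosomes.

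The 8 genes fell into 2 patterns. For Myoc and Angptl7 the difference between genotypes after sham surgery was small beside that after TAC. For the other 6 the estimated sham difference was at least 51.7% of the TAC difference on the log2 scale, though none of the 6 passed an adjusted p of 0.05 after sham surgery in edgeR's test with all libraries, where each had an unadjusted p under 0.05. Their knockout sham libraries lay below both wild type sham libraries, as did those of Angptl7 and of 26.3% of all genes. The mean was lowest in knockout TAC for 5 genes, Myoc, Angptl7, Lrrn4cl, C1qtnf1 and P4htm. For Lingo1, Kcnn3 and Plcg2 the knockout sham mean was lower still, so the name of lowest in knockout TAC hearts does not hold for these 3. Bulk tissue cannot tell apart fewer cells of a type and less RNA per cell.

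**Figure D1:**
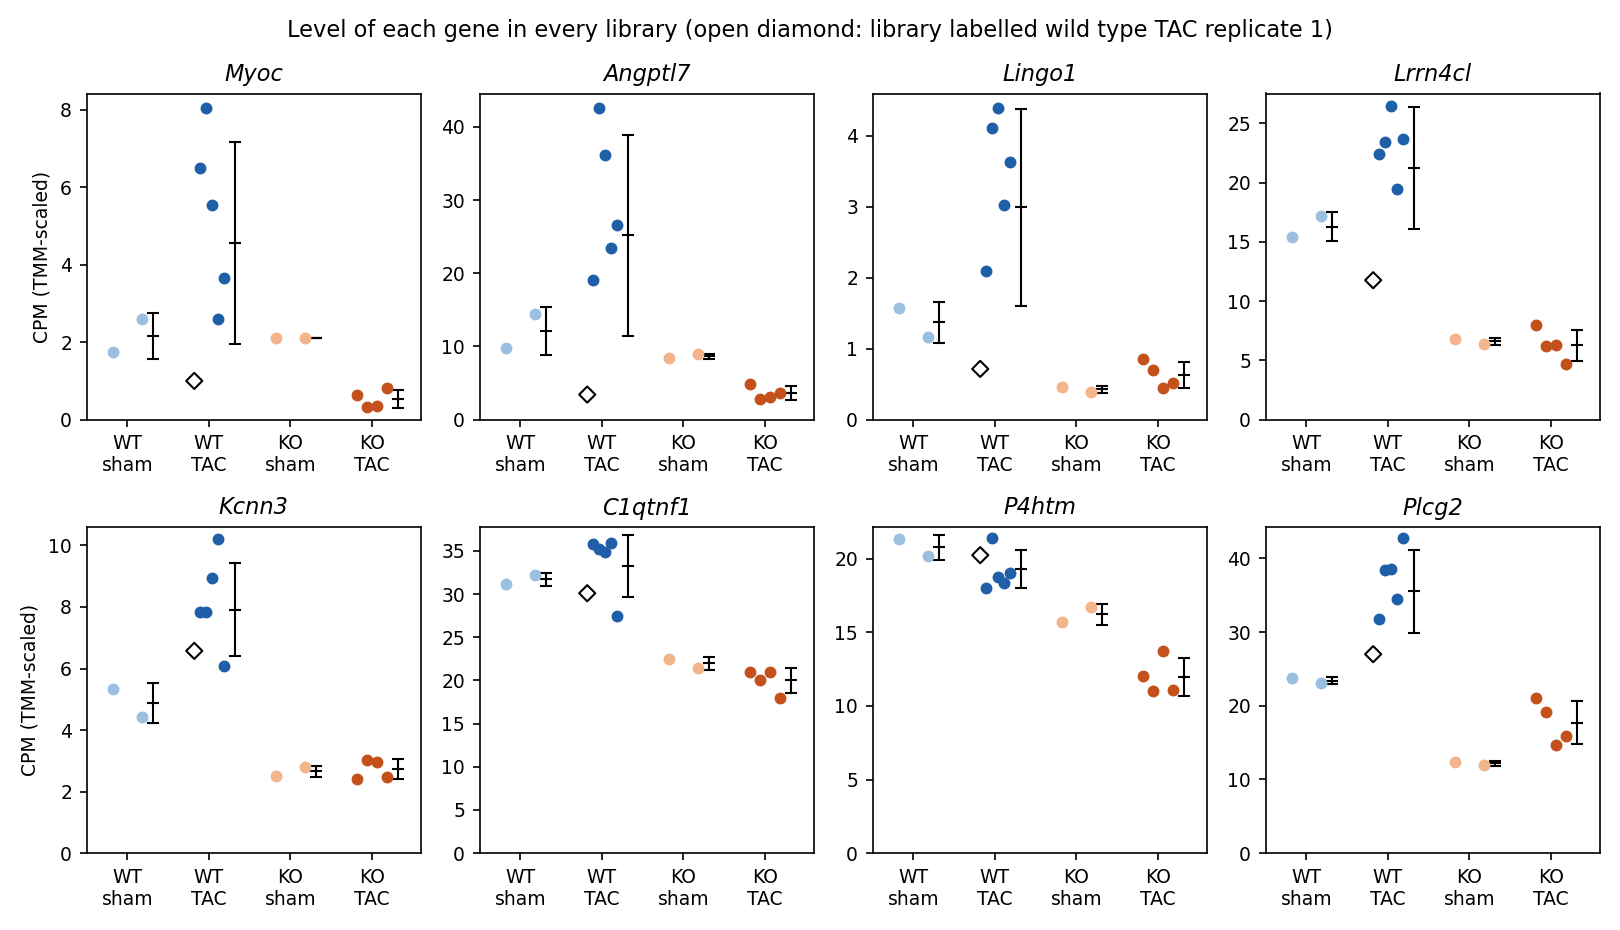
Level of each of the 8 genes in CPM (y axis, linear from 0) in every library of the 4 groups (x axis), with mean and SD beside the points. The library labelled wild type TAC replicate 1 (open diamond) lies among or next to the knockout points for Myoc (1.00 CPM), Angptl7 (3.43) and Lingo1 (0.715), and among the wild type points for P4htm (20.2).

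Myoc encodes myocilin, a secreted glycoprotein with an olfactomedin domain that is best known from the outflow tissue of the eye. It lies at chr1:162639155-162649693 (GRCm38, plus strand). Wild type sham libraries held 1.75 and 2.59 CPM, and knockout sham libraries 2.11 and 2.11. Wild type TAC libraries ranged from 1.00 (replicate 1) to 8.03, with a median of 4.60. Knockout TAC libraries held 0.629, 0.315, 0.354 and 0.805 CPM, from 8 to 14 counts each. The sham groups thus overlapped, and every knockout TAC library was below every other library, including replicate 1 of wild type TAC. Mean levels after TAC were 4.56 ± 2.61 CPM in wild type (SD, n = 6) and 0.525 ± 0.233 in knockout (n = 4). The knockout was at 11.2% of the fitted wild type level after TAC (log2 difference -3.16, SE 0.54) and at 9.68% without replicate 1 (-3.37, SE 0.37). After sham surgery it was at 97.6%, a log2 difference of -0.03 (SE 0.70, 95% interval -1.55 to 1.48, adjusted p = 0.991 in edgeR's quasi-likelihood test with Benjamini-Hochberg adjustment). With 2 libraries a group this interval is wide. Without replicate 1 the sham adjusted p was 0.986. Myocos, which shares 93 exon bases with Myoc on the opposite strand, had 0 counts in all libraries.

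Angptl7 encodes a secreted angiopoietin-like protein that is also abundant in the outflow tissue of the eye. It lies at chr4:148495183-148500460 on the minus strand, inside Mtor, which is on the opposite strand and shares 0 exon bases with it. After sham surgery the wild type libraries held 9.81 and 14.4 CPM, and knockout sham libraries 8.37 and 8.91. After TAC the wild type libraries ranged from 3.43 (replicate 1) to 42.6 with a median of 25. Knockout TAC libraries held 4.94, 2.80, 3.14 and 3.68. Replicate 1 was therefore inside the knockout TAC range, whereas the other wild type TAC libraries, at 19 CPM or more, were above all sham libraries. Knockout hearts were at 14.3% of wild type after TAC (log2 -2.80, SE 0.56) and at 12.2% without replicate 1 (-3.03, SE 0.27). After sham surgery they were at 71.6%, a log2 difference of -0.48 (SE 0.78, interval -2.20 to 1.23, edgeR adjusted p = 0.870, and 0.643 without replicate 1). The sham ranges did not touch, but the difference did not pass in either fit. In edgeR on the sham libraries alone it was -0.47 (SE 0.18, interval -0.86 to -0.08, adjusted p = 0.132).

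C1qtnf1 encodes a secreted protein of the C1q and TNF related family, which resemble the adipokine adiponectin. It lies at chr11:118428203-118449963 on the plus strand and was, per exon length, among the most abundant of the 8 (10.6 RPKM in wild type TAC, where Angptl7 had 11.7 and Lingo1 0.635). Wild type sham libraries held 31.2 and 32.2 CPM and knockout sham libraries 22.5 and 21.4. Wild type TAC libraries ranged from 27.4 to 36.0 with a median of 35.1, and knockout TAC libraries held 21, 20.1, 21 and 18. No knockout library reached the lowest wild type library, and replicate 1 (30.1 CPM) was in the range of the other wild type TAC libraries. The knockout was at 69.3% of wild type after sham (log2 -0.53, SE 0.13, edgeR adjusted p = 0.161) and at 60.3% after TAC (-0.73, SE 0.09). An antisense gene that shares 642 exon bases with it, Gm11747, had 2 counts in all libraries. Without replicate 1 the sham adjusted p was 0.106 and the TAC value 59.2% (-0.76, SE 0.09).

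Lingo1 encodes a membrane protein with leucine-rich repeats and an immunoglobulin domain, known as a part of the Nogo receptor complex of neurons. It lies at chr9:56618475-56796468 on the minus strand and was the least abundant of the 8 per exon length in every group. Wild type sham libraries held 1.58 and 1.17 CPM, and knockout sham libraries 0.462 and 0.392, the latter from 9 and 8 counts. Wild type TAC libraries ranged from 0.715 (replicate 1) to 4.39 with a median of 3.33, and knockout TAC libraries held 0.854, 0.700, 0.442 and 0.517. Replicate 1 was within the knockout TAC range, and the other wild type TAC libraries were above all others. The knockout was at 31.2% of wild type after sham (log2 -1.68, SE 0.69, interval -3.14 to -0.22, edgeR adjusted p = 0.359, and 0.139 without replicate 1). After TAC it was at 21.2% (-2.24, SE 0.41), and at 18.5% without replicate 1 (-2.44, SE 0.27).

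Lrrn4cl encodes a membrane protein named for its likeness to the end of the neuronal leucine-rich repeat protein LRRN4. It lies at chr19:8850768-8853909 on the plus strand. After sham surgery the wild type libraries held 15.4 and 17.1 CPM and knockout sham libraries 6.83 and 6.37. After TAC the wild type libraries ranged from 11.8 (replicate 1) to 26.4 with a median of 22.9, and knockout TAC libraries held 7.95, 6.19, 6.27 and 4.71. The 6 knockout libraries all lay under the 8 of wild type, and replicate 1 lay between the ranges. Knockout hearts were at 40.6% of wild type after sham (log2 -1.30, SE 0.30, interval -1.93 to -0.67). This did not pass with all libraries (edgeR adjusted p = 0.118) and passed without replicate 1 (adjusted p = 0.00498). That library is not in the sham contrast. The sham log2 difference stayed at -1.30, and the SE from the common fit fell to 0.19. After TAC the knockout was at 29.7% (-1.75, SE 0.20), and at 27.3% without replicate 1 (-1.87, SE 0.13).

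Kcnn3 encodes a small-conductance potassium channel that opens on calcium. It lies at chr3:89520164-89675132 on the plus strand. Wild type sham libraries held 5.33 and 4.41 CPM and knockout sham libraries 2.52 and 2.79. Wild type TAC libraries ranged from 6.08 to 10.2 with a median of 7.84, and knockout TAC libraries held 2.43, 3.04, 2.96 and 2.47. The knockout libraries of both surgeries lay in 1 narrow range below all wild type libraries, and replicate 1 (6.57 CPM) was among the other wild type TAC libraries. The knockout was at 54.5% of wild type after sham (log2 -0.88, SE 0.25, interval -1.41 to -0.35, edgeR adjusted p = 0.237, and 0.156 without replicate 1). After TAC it was at 34.7% (-1.53, SE 0.16), and at 33.6% without replicate 1 (-1.57, SE 0.16).

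P4htm encodes a transmembrane prolyl hydroxylase of the endoplasmic reticulum that can act on the alpha subunits of hypoxia-inducible factors. It lies at chr9:108578862-108597667 on the minus strand. After sham surgery the wild type libraries held 21.4 and 20.2 CPM and knockout sham libraries 15.7 and 16.7. After TAC the wild type libraries ranged from 18 to 21.4 with a median of 18.9, and knockout TAC libraries held 12, 11, 13.7 and 11.1. The groups formed 3 steps, with both wild type groups highest, knockout sham next and knockout TAC lowest. Replicate 1, at 20.2 CPM, lay with the wild type. Knockout hearts were at 78.1% of wild type after sham (log2 -0.36, SE 0.13, interval -0.63 to -0.08, edgeR adjusted p = 0.310, and 0.255 without replicate 1). After TAC they were at 62.0% (-0.69, SE 0.09), and at 62.6% without replicate 1 (-0.68, SE 0.09).

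Plcg2 encodes phospholipase C gamma 2, which splits a membrane phosphoinositide downstream of immune receptors in B cells and myeloid cells. It lies at chr8:117498291-117635142 on the plus strand. Wild type sham libraries held 23.7 and 23.1 CPM and knockout sham libraries 12.4 and 11.9. Wild type TAC libraries ranged from 27.0 (replicate 1) to 42.7 with a median of 36.5, and knockout TAC libraries held 21, 19.2, 14.7 and 15.9. Both TAC groups lay above the sham group of their genotype, and no knockout library reached the lowest of wild type. The knockout was at 52.1% of wild type after sham (log2 -0.94, SE 0.19). This was closest to the threshold of the 8 with all libraries (edgeR adjusted p = 0.0748), and it passed without replicate 1 (adjusted p = 0.0214). Without that TAC library the sham log2 difference stayed at -0.94, and the SE fell to 0.17. After TAC the knockout was at 49.9% (-1.0, SE 0.12), and at 47.6% without replicate 1 (-1.07, SE 0.11).

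**Figure D2:**
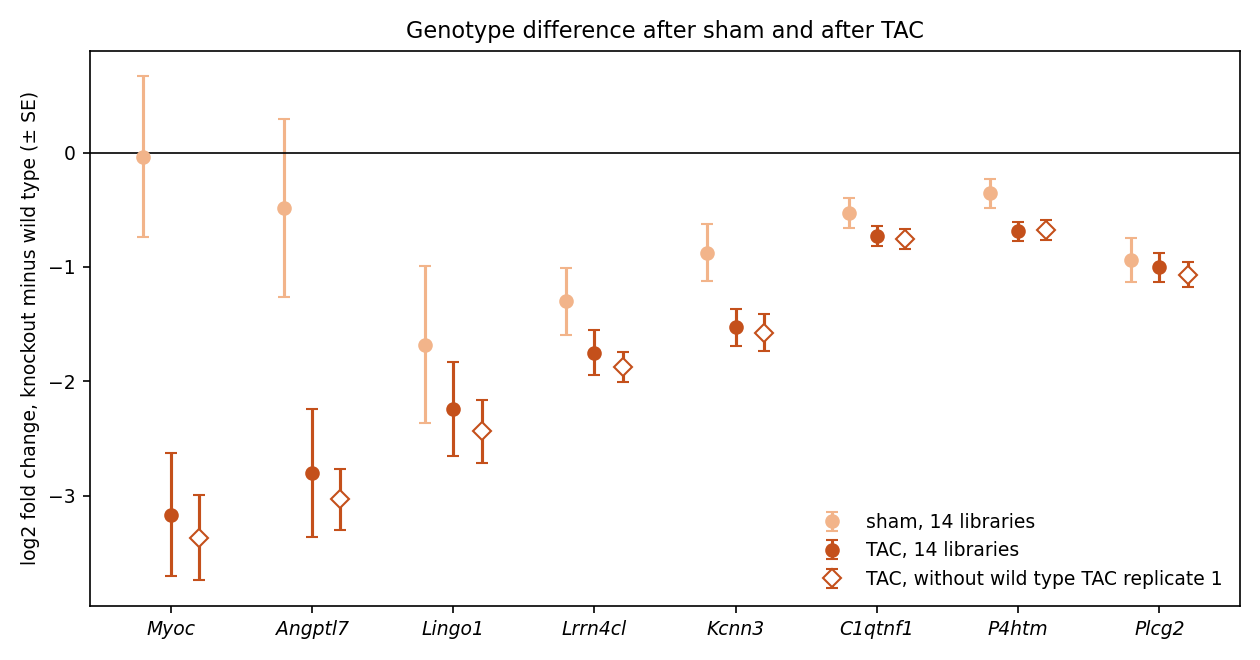
Log2 fold change, knockout minus wild type (y axis, ± SE), of each gene (x axis) after sham and after TAC, the latter also leaving out replicate 1 of the libraries labelled wild type TAC. The sham value is near 0 for Myoc (-0.03) and close to the TAC value for Plcg2 (-0.94 and -1.0).

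Over the 8 genes, 0 passed an adjusted p of 0.05 after sham surgery in edgeR's quasi-likelihood test, where 0.0882% of all 15876 genes were called lower. All 8 estimates were below 0, as were 48.9% of all genes, and 6 of the 8 were lower at an unadjusted p under 0.05, as were 6.01% of all genes. Without replicate 1, 2 of 8 passed (Lrrn4cl and Plcg2), where 0.283% of genes were called lower, and 6 of 8 had an unadjusted p under 0.05, where 6.59% of genes were lower at that level. DESeq2 called 3 (Lrrn4cl, C1qtnf1 and Plcg2; 0.68% of genes), limma voom called 0, and edgeR on the 4 sham libraries alone called 5 (Lingo1, Lrrn4cl, Kcnn3, C1qtnf1 and Plcg2; 4.45% of genes). The fits over all libraries take their spread from the TAC libraries too. Those libraries chose the genes, so the sham p values of these fits are not independent of that choice. Leaving out replicate 1, a TAC library, moves the sham test through that spread, while the sham estimates stay nearly the same. The fit on the sham libraries alone takes its spread from them only, and an exact two-sided permutation test of 2 against 2 cannot go below 0.333. Knockout sham libraries lay below wild type sham libraries in 7 of 8 genes, a pattern that 26.3% of all genes show with groups this small. The 6 knockout libraries lay under the 8 wild type libraries in 5 of 8 genes (1.13% of all genes), and in 7 of 8 without replicate 1 (2.23%). The choice of the genes used the TAC libraries in those last counts, so nothing is read from them. The same holds for the TAC comparison, in which all 8 genes were among the 894 called lower (5.63% of genes), at ranks 6 (Myoc) to 316 (P4htm) by fold. The median log2 difference of the 8 genes was -0.70 after sham and -1.64 after TAC, and that of all tested genes was 0.01 and -0.01. Without replicate 1 all 8 were again called lower after TAC (10% of genes), and the medians of the 8 were -0.70 and -1.72.

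Set against the TAC difference on the log2 scale, the sham difference was 1.11% of it for Myoc and 17.2% for Angptl7. It was 51.7% for P4htm, 57.4% for Kcnn3, 72.4% for C1qtnf1, 74.3% for Lrrn4cl and 75.0% for Lingo1. The largest share was that of Plcg2, at 93.8%. Without replicate 1 the order of the genes changed only among the middle 5, which ran from 52.8% to 69.9%. The genes were chosen on the TAC difference, and the SE of the sham difference was as large as 0.78 (Angptl7). These shares and their order are therefore a description only.

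The levels after TAC and sham within each genotype share libraries with the comparison that chose the genes, so they are given with SE and no test. In wild type, Myoc, Angptl7 and Lingo1 were higher after TAC by 1.08, 1.07 and 1.12 on the log2 scale (SE 0.58, 0.65 and 0.49), and by 1.29, 1.29 and 1.32 without replicate 1. In the knockout, Myoc was lower after TAC by a log2 value of -2.04 (SE 0.67) and Angptl7 by -1.26 (SE 0.70), and all 4 knockout TAC libraries lay below both knockout sham libraries for each. With replicate 1 left out, these were the 2 genes whose TAC libraries lay entirely above the sham libraries in wild type and entirely below them in the knockout, as for 0.428% of all genes. For Myoc this was a near tie, with the lowest such wild type TAC library at 2.60 CPM and the higher wild type sham library at 2.59. The choice of the genes used these TAC libraries, so nothing is read from the 0.428%. The TAC response in the knockout minus that in wild type was -3.13 (SE 0.89) for Myoc and -2.32 (SE 0.95) for Angptl7, and -3.33 and -2.55 without replicate 1. For Plcg2 the response was 0.60 (SE 0.16) in wild type and 0.54 (SE 0.17) in knockout, a difference of -0.06 (SE 0.23). Kcnn3 was higher after TAC in wild type (0.69, SE 0.20) and level in the knockout (0.04, SE 0.22). Lrrn4cl differed by 0.39 (SE 0.23) and -0.07 (SE 0.26), and C1qtnf1 by 0.07 (SE 0.11) and -0.13 (SE 0.12). P4htm was level in wild type (-0.11, SE 0.10) and lower after TAC in the knockout (-0.44, SE 0.11). The response in the knockout minus that in wild type was -0.65 (SE 0.30) for Kcnn3 and -0.33 (SE 0.15) for P4htm. It was -0.56 (SE 0.82) for Lingo1, -0.45 (SE 0.35) for Lrrn4cl and -0.20 (SE 0.16) for C1qtnf1. Without replicate 1 the wild type values were 0.67 for Plcg2, 0.74 for Kcnn3, 0.51 for Lrrn4cl, 0.10 for C1qtnf1 and -0.12 for P4htm.

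**Figure D3:**
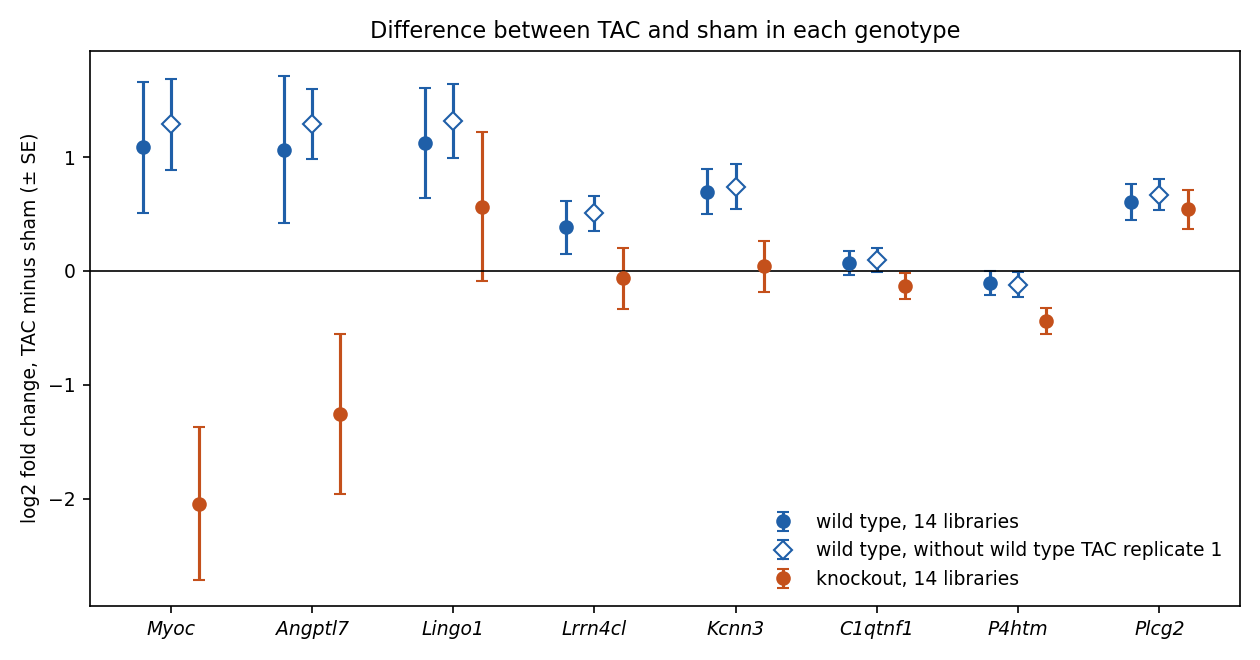
Log2 fold change, TAC minus sham (y axis, ± SE), of each gene (x axis) in wild type (also leaving out replicate 1 of the libraries labelled wild type TAC) and in the knockout. Myoc and Angptl7 are above 0 in wild type (1.08 and 1.07) and below 0 in the knockout (-2.04 and -1.26), while Plcg2 is above 0 in both.

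The library labelled wild type TAC replicate 1 did not take 1 position over the 8 genes. On a log2(CPM + 0.5) scale with the mean of the other wild type TAC libraries at 0 and that of knockout TAC at 1, it stood at 1.02 for Angptl7, 0.93 for Lingo1 and 0.76 for Myoc. It stood at 0.52 for Lrrn4cl and 0.42 for Plcg2, and at 0.22, 0.20 and -0.13 for C1qtnf1, Kcnn3 and P4htm. The median was 0.47. Its Myoc, Lrrn4cl and Plcg2 levels lay between the 2 ranges, and its C1qtnf1, Kcnn3 and P4htm levels in the wild type range. Whether the label or the sample accounts for this was not tested.

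After TAC the resident fibroblast and macrophage lists had a larger share of genes lower in the knockout than all genes had. The 2 of 20 activated fibroblast markers called lower were too few to set apart from the share of all genes. The pericyte and Schwann cell lists had 0 lower in edgeR with all libraries, which lists of 14 and 16 genes can show at a share of 5.63%. In the list of resident fibroblast markers 13 of 22 were lower in the knockout and 0 higher (edgeR, adjusted p of 0.05; 5.63% of all genes were called lower and 3.71% higher), with a median log2 difference of -0.59. Without replicate 1 it was 18 of 22 lower and 0 higher (background 10% and 8.5%). Of 20 activated fibroblast markers, 2 were lower (Sfrp1, a secreted Wnt antagonist, and Col5a1, a collagen), and 8 lower and 1 higher without replicate 1. Of 14 macrophage markers 5 were lower (9 without replicate 1), among them the scavenger receptor Cd163 (-0.79, SE 0.15, edgeR adjusted p = 0.0061). The 16 Schwann cell markers had 0 lower and 1 higher, Kcna1 (2 and 2 without replicate 1, and 1 and 1 in DESeq2). Of the 14 pericyte markers 0 passed in either direction in edgeR, DESeq2 or limma voom, 3 were lower and 1 higher at an unadjusted p under 0.05, and without replicate 1 the count was 0 lower and 1 higher. Epicardial markers had 1 lower and 1 higher of 12, endothelial markers 1 and 1 of 14, cardiomyocyte markers 0 and 1 of 10, and glucocorticoid responsive genes 1 and 3 of 20. Without replicate 1 these were 1 and 2, 3 and 2, 0 and 3, and 3 and 4. Of 12 lymphocyte markers 0 passed in any of the 3 tools, and 1 was higher at an unadjusted p under 0.05. Of 5 red blood cell genes 0 passed in edgeR or limma voom, while all 5 were higher in DESeq2 and at an unadjusted p under 0.05 in edgeR. Their summed level ran from 233 to 914 CPM in knockout TAC and from 174 to 272 in wild type TAC. The part of any cell type in the levels of the 8 genes was not tested.

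The summed level of the resident fibroblast list, all of whose genes were detected in every group, was 6094 and 6180 CPM in wild type sham and 5077 and 5739 in knockout sham. After TAC it ran from 6087 (replicate 1) to 9027 in wild type and from 4496 to 5543 in knockout. The sums of the genotypes did not overlap in either surgery; with 2 libraries a group, 26.3% of all single genes show this pattern after sham. After sham surgery the median log2 difference was -0.15 in this list and -0.53 in the activated fibroblast list. The 8 genes ran from -0.03 (Myoc) to -1.68 (Lingo1), with a median of -0.70. In the sham contrast 0 genes of the resident fibroblast list passed in edgeR, 1 had an unadjusted p under 0.05, DESeq2 called 1 and limma voom 0. Plcg2 is known from immune cells. The macrophage sum was 483 and 509 CPM in wild type sham against 490 and 515 in knockout sham, and the lymphocyte sum was 20.5 and 22.7 against 22.3 and 26.7. Both sums overlapped between genotypes, and the part of any cell type in the Plcg2 level was not tested.

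**Figure D4:**
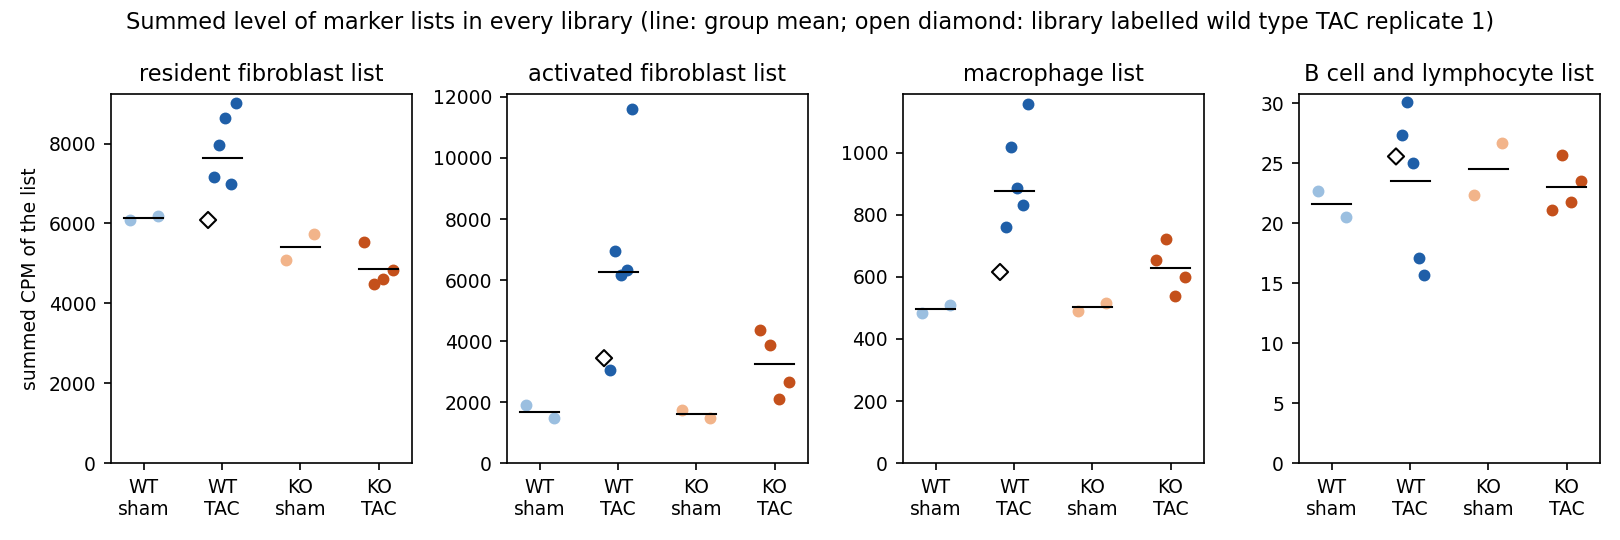
Summed CPM (y axis, linear from 0) of 4 marker lists in every library of the 4 groups (x axis), with the group mean as a line. The mean resident fibroblast sum is lowest in knockout TAC (libraries at 4496 to 5543 CPM), and the macrophage sums of the sham groups overlap.

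In 8 lists of family members and pathway partners of the 8 genes, 10 of 80 other genes were lower in the knockout after TAC (12.5%, against 5.63% of all genes) and 3 higher (3.75%, against 3.71%). Without replicate 1 it was 18 lower (22.5%, against 10%) and 6 higher (7.5%, against 8.5%). The lists were chosen with earlier results of these data known, so these shares are a description. Of 9 other olfactomedin genes 2 were lower in the knockout after TAC, Olfml1 (-0.67, SE 0.14, edgeR adjusted p = 0.0128) and Olfm1 (-0.48, SE 0.13, adjusted p = 0.0383), and 0 were higher. Of 8 angiopoietin-like genes and angiopoietins 2 were lower, Angptl2 (-0.84, SE 0.14, adjusted p = 0.0035) and Angptl1 (-0.90, SE 0.27, adjusted p = 0.0476). Of 7 genes of the LINGO family and Nogo receptor complex, 1 passed, Lingo3, and it was higher in the knockout (0.88, SE 0.19, adjusted p = 0.0138), opposite to Lingo1. After sham surgery Lingo3 differed by 1.17 (SE 0.29, edgeR adjusted p = 0.148, and 0.0351 without replicate 1, where 0.113% of all genes were called higher and 0.0378% with it). Of 4 LRRN genes and of 6 calcium-activated potassium channel genes 0 passed after TAC in edgeR, DESeq2 or limma voom, and 1 LRRN gene had an unadjusted p under 0.05. Of 10 C1q and TNF related genes C1qtnf7 was lower (-0.80, SE 0.12, adjusted p = 0.0017). Of 16 prolyl hydroxylase and hypoxia genes 3 were lower, including P4ha1 and P4hb of the collagen prolyl hydroxylase, and 1, Vegfa, was higher. Of 20 genes of phospholipase C and immune receptor signalling, 2 were lower, the calcium release channel Itpr3 and the adaptor Tyrobp, and 1, Plcb1, was higher. Without replicate 1 the numbers lower and higher after TAC were 4 and 0 for the olfactomedin, 2 and 0 for the angiopoietin-like, 2 and 3 for the LINGO, and 2 and 1 for the C1q and TNF related genes. They were 4 and 1 for both the prolyl hydroxylase and the phospholipase C lists, and 0 for the LRRN and channel genes. After sham surgery 0 of the 80 genes of these 8 lists passed in edgeR with all libraries, and 2 passed without replicate 1. DESeq2 called 2 and limma voom called 0. With all libraries 11 had an unadjusted p under 0.05 in edgeR, in either direction. The share of all genes at that level in both directions is not given, so nothing is read from the 11.

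Among themselves the 8 genes varied together over the 14 libraries to differing degrees, as a description, since the libraries share groups. Myoc and Angptl7 had the highest correlation of log2(CPM + 0.5) with each other (r = 0.94). P4htm and Plcg2 had the lowest (r = 0.57). Without replicate 1 the highest was that of Lingo1 and Plcg2 (r = 0.97), with Myoc and Angptl7 at 0.95. Among the tested genes most like Myoc were Rin2 and Abca8a (r = 0.94 for each), and among those most like Angptl7 were Aldh1a1 and Serinc3 (r = 0.95 for each). On the log2 scale the genotypes differed by -0.05 after sham and -0.55 after TAC for Rin2, and by -0.10 and -0.55 for Abca8a. Aldh1a1, which makes retinoic acid, differed by -0.38 and -0.86, and Serinc3 by -0.20 and -0.46. Abca8a is itself in the resident fibroblast list.

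The genes named here as like the other 6 were all below 0 after sham surgery, from -0.31 (Pgrmc2 and Htra3) to -1.83 (Mfap1a) on the log2 scale. Of all genes 48.9% were below 0. The named genes were picked by correlation over libraries that include the sham ones, which favours this, so nothing is read from it. Lrrn4cl was most like Selenow (r = 0.98), a small selenoprotein, which differed by -1.49 after sham and -1.74 after TAC on the log2 scale, and like Rtf2 and Timp2. Rtf2 differed by -0.90 and -0.87. Lingo1 was most like Ephx1 (r = 0.98), Lrp1 and Pgrmc2, and Kcnn3 most like Pkd1 (r = 0.95), Mst1r and Cadm3. C1qtnf1 was most like Cadm3 (r = 0.96), Adamtsl4 and Mfap1a. Among the genes most like P4htm were C1qtnf7 (r = 0.90) and Htra3 (r = 0.89), and Plcg2 was most like Fgfr1, Sirpa and Lamc1 (r = 0.97 for each).

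Within 500 kb of the 8 genes, 160 other genes were tested. After sham surgery 0 of them passed in edgeR, 18 had an unadjusted p under 0.05, and DESeq2 and limma voom called 0. The share of all genes at that level in both directions is not given, so nothing is read from the 18. After TAC 11 were lower (6.88%, near the 5.63% of all genes) and 6 higher. Without replicate 1 it was 19 lower (11.9%, against 10% of all genes) and 13 higher. Among those lower were Fmo2, an oxygenase, near Myoc (-1.42, SE 0.25, edgeR adjusted p = 0.0077), and Timp2, a protease inhibitor, near C1qtnf1 (-0.94, SE 0.12, adjusted p = 0.00077). Wdr6, 123 bases from P4htm, differed by -0.31 (SE 0.09, adjusted p = 0.0439).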

How the data were processed

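Polyadenylated RNA of mouse ventricles was sequenced in 14 libraries of 4 groups. The authors deposited raw counts per gene, as whole numbers without normalization. The submitters' processing notes name HISAT2 2.1.0, featureCounts, FastQC, edgeR and the build GRCm38. For the counting, neither annotation nor strand setting is given in the sources used here, so reads of genes that overlap on opposite strands cannot be told apart. From the deposited counts, edgeR 4.0.16 in R 4.3.3 (filterByExpr on the group, TMM scaling, glmQLFit robust, 4 group means over all libraries) gave quasi-likelihood F tests with Benjamini-Hochberg adjustment over all 15876 tested genes and a threshold of 0.05. Standard errors are |log2 fold change| over the square root of F. Only the sham contrast was tested for the 8 genes, because the comparison that chose them used the TAC libraries. All libraries share 1 estimate of the spread. The TAC libraries that chose the genes therefore also enter the sham p values, which are not independent of that choice. Coordinates and exon lengths come from GENCODE M21 and promoters from RefSeq, which matched 6 of the 8 genes.

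The members, the 19 gene lists and the alternatives were chosen with earlier results of these data known. Named besides the 8 were Ccl24, the 3 genes most like each by Pearson r of log2(CPM + 0.5), up to 3 genes of smallest p in each list described, and called neighbours; neighbours called after TAC were chosen after their values were seen. Some of the most similar genes are not reported here. Alternatives used DESeq2 1.42.0, limma voom (3.58.1), RLE size factors, no filter and a stricter filter (1 CPM in 4 libraries), the 2 compared groups alone, a replicate block, and each library left out. The steps were tested on simulated data. There the sham contrast recovered 14% of genes raised 1.5-fold, 58% raised 2-fold, 84% raised 4-fold and 67.3% lowered to 0.25 of their level. Sham increases of 1.5-fold were thus mostly missed. Lowering was simulated only to 0.25, so recovery of the smaller decreases estimated for the 8 genes was not measured. A gene that did not pass after sham may still differ. Within groups, libraries differed by more than sampling noise (chi-square per degree of freedom 4.78 to 192 per pair). Libraries with the same replicate number did not deviate together, but the pairs were too few to tell whether the numbers mark a batch.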

Additional observations from a re-analysis of the deposited data

Results flagged for a closer look

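The responses of 2 genes to TAC went in opposite directions in the 2 genotypes, with replicate 1 of the libraries labelled wild type TAC left out. Every wild type TAC library lay above both wild type sham libraries, and every knockout TAC library lay below both knockout sham libraries, a pattern that 0.428% of all genes show. For Myoc it rests on 2.60 CPM in wild type TAC replicate 6 against 2.59 in wild type sham replicate 2. For Myoc the log2 response in knockout minus that in wild type was -3.33 (SE 0.61), and for Angptl7 it was -2.55 (SE 0.45). The difference was not tested, since the genes were chosen on these TAC libraries. That choice favours the pattern, so nothing is read from the 0.428%. With replicate 1 in its labelled group the wild type TAC range overlapped the wild type sham range for both genes. The 95% interval of the wild type response then ran from -0.16 to 2.33 for Myoc and from -0.36 to 2.49 for Angptl7. That of the knockout response ran from -3.49 to -0.60 for Myoc and from -2.80 to 0.29 for Angptl7. In 18 groups of 4 or 6 libraries (the 8 genes and Ccl24 in each TAC group) no library stood far from the rest of its group by Dixon's 95% criterion on linear CPM. On the log2(CPM + 0.5) scale, examined after seeing the data, replicate 1 of the libraries labelled wild type TAC did so for Angptl7 (1.97, the others 4.29 to 5.43) and for Ccl24 (-0.64, the others 1.35 to 2.16). Chance flags about 1 in 20 groups by this criterion.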

How the results depend on the processing

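In each of 21 alternatives the 8 genes were lower in the knockout after TAC. After sham surgery 7 of the 8 were lower in each, and Myoc was not: its log2 difference of -0.03 became 0.0070 with limma voom and ran from -0.30 to 0.27 over the fits that left out a library. The number of the 8 called lower after sham (0) was 1 with no filter on low counts, 3 with DESeq2, 5 with only the 2 compared groups, and 0 to 2 with a library left out (2 each when wild type TAC replicate 1 or 7 was left out). Genes called after sham over the whole table (20) were 44 with no filter, 147 with DESeq2, 1158 with only the 2 compared groups and 3 to 79 with a library left out (8 and 3 without knockout sham replicates 1 and 2, 4 and 4 without wild type sham replicates 1 and 2, 63 and 79 without wild type TAC replicates 1 and 7, 31 without replicate 1 of knockout TAC). Genes called after TAC (1483) were 2351 with DESeq2, 783 with only the 2 compared groups and 302 to 2939 with a library left out (606, 451 and 302 without knockout TAC replicates 2, 4 and 5, 951 without wild type sham replicate 2, 2939, 657, 669 and 972 without wild type TAC replicates 1, 3, 4 and 6). The cause of these moves was not tested. With the replicate number as a block, 13 genes were called after sham, 45 after TAC and 0 of the 8 after sham. Same-numbered libraries correlated at -0.01 in sham and -0.24 to -0.13 in TAC. TAC pairs with different numbers ran from -0.33 to 0.40. With 2 libraries a sham group the same-numbered sham pairs give 1 value by construction. So few pairs cannot tell whether the numbers mark a shared batch. Lingo1 in knockout hearts rested on 8 to 20 counts a library and Myoc in knockout TAC on 8 to 14, which limits their precision. The SE of the log2 difference was largest for Angptl7 (0.78 after sham and 0.56 after TAC), Myoc (0.70 and 0.54) and Lingo1 (0.69 and 0.41).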
